A study of Mus musculus with 21 samples.

Results

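Peritoneal macrophages of wild-type C57BL/6 mice that had received recombinant lumican were compared with the same kind of cells that had received recombinant biglycan. The comparison rests on 6 of the 21 libraries of the series, chosen by their labels for genotype and treatment. The 3 lumican libraries were given lumican with LPS, lumican with CpG, or lumican alone, and the 3 biglycan libraries were given biglycan with LPS, with CpG, or alone. Each lumican library was set against the biglycan library of the same stimulus, which gives 3 pairs. The 3 wild-type libraries given no protein (LPS, CpG, untreated) served as a background, and 8 libraries labelled Lum-/- or Bgn-/- gave a second look at the same proteins. LPS was used at 100 ng/mL and CpG at 1 µM, each for 6 h, and the recombinant protein at 10 µg/mL from 1 h before the stimulus. For the libraries given protein alone the labels state neither dose nor time. All cells came from unelicited peritoneal lavage (mice, n = 10), were selected for CD11b and were kept overnight in culture before treatment in serum-free medium. For every combination of protein and stimulus there is a single library, and which mice went into which well is not labelled. The mean over the 3 pairs therefore treats stimuli as repeats, and its error holds any difference between stimuli as well as noise. The labels do not give the species or source of the recombinant proteins.

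Both added proteins belong to the small leucine-rich proteoglycans, secreted proteins whose repeats resemble those of the Toll-like receptors. Lumican and biglycan are both known to bind CD14, the co-receptor that hands LPS to TLR4, and biglycan is known as a danger signal that acts through TLR2 and TLR4. LPS is sensed by TLR4 and drives both NF-kB target genes (cytokines and chemokines) and, through interferon beta, the interferon-stimulated antiviral genes. CpG DNA is sensed by TLR9 inside endosomes.

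The cells carried macrophage transcripts in each of the 6 libraries. Adgre1, which encodes F4/80, stood at 557 to 674 TPM in the lumican libraries and 578 to 645 TPM in the biglycan libraries (TPM is an abundance corrected for transcript length and library size). Gata6, the factor that marks large peritoneal macrophages, was at 3.40 to 7.99 TPM with lumican and 3.63 to 7.89 TPM with biglycan. Markers of other cell types were present too. Their levels are sums over lists, which cannot be ranked against single genes. The erythroid and platelet list summed to 1716 to 2003 TPM in the lumican libraries and 1675 to 1937 TPM in the biglycan libraries. Of that list, Hba-a1 and Gp9 were at 0 in all 6. The summed level of 10 mast cell markers was 110 to 208 TPM in the lumican libraries, 107 to 220 TPM in the biglycan libraries and 5.82 to 209 TPM with no protein, and that of 10 B cell markers was 1077 to 1564, 1080 to 1326 and 737 to 1384 TPM. Of the neutrophil list, Ly6g and S100a9 were at 0 in all 6 libraries, but its other members were not all absent. The list summed to 264 to 393 TPM in the lumican libraries and 277 to 370 TPM in the biglycan libraries. The untreated wild-type library stood apart from the other wild-type libraries, with mast cell markers at 5.82 TPM and the eosinophil list at 1172 TPM, almost all of it Alox15. It enters only the comparisons with no protein. The files hold no counts, and depth was estimated from the spacing of low values at 13 to 20 M reads in the 6 libraries, lowest in the library given biglycan and CpG.

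No gene separated lumican from biglycan over the 3 pairs together. Of 11178 genes tested with limma over the 3 pairs, 0 (0%) passed a Benjamini-Hochberg adjusted p of 0.05, and 401 (3.59%) had an unadjusted p under 0.05. The median difference over all tested genes, lumican minus biglycan on the log2(TPM + 1) scale, was 0.04 in the LPS pair, -0.03 in the CpG pair and -0.07 in the pair with no stimulus. Within a factor of 1.5 of each other were 97.3% of genes in the LPS pair, 96.5% in the CpG pair and 95.5% in the unstimulated pair. The 3 pairs did not share their differences: across the 11178 genes, which are not independent replicates, the Spearman correlation between pairs was -0.051, -0.041 and 0.022. The fit had 2 residual degrees of freedom, and the median 95% interval of a single gene reached 0.25 log2 units to either side of the estimate. That interval is not adjusted for the number of genes, so it is not the limit of detection. Mean differences ran from -1.93 to 4.29 with no gene called, so larger differences could be missed too. The highest, 4.29, was that of Rps27rt, whose single value is uncertain beside its near-identical copy Rps27. With 3 pairs, an exact two-sided sign-flip test of a single value cannot go below p = 0.25.

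The larger list differences lay within single stimuli. Among gene lists chosen for these cells and stimuli, the interferon-stimulated genes were higher with lumican than with biglycan in the CpG pair, by a median of 0.80 over 37 members, and had a median of 0.01 in the LPS pair. The inflammatory cytokines and chemokines were higher with lumican in the unstimulated pair, by a median of 0.55 over 25 members, and lower in the LPS pair, by a median of -0.23. A pair is 1 library against 1 library, so these differences carry no replicate check and no p-value.

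**Figure D1:**
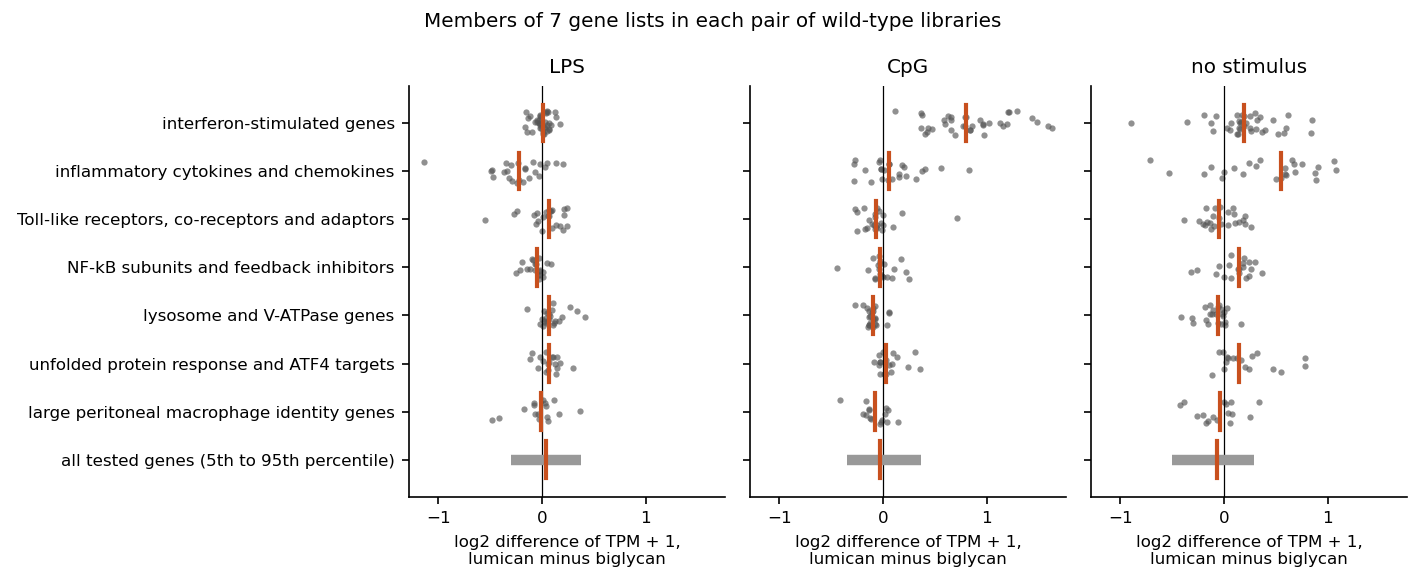
Log2 difference of TPM + 1, lumican minus biglycan, for members of 7 gene lists (points), with each list's median (orange line), in the LPS, CpG and unstimulated pairs of wild-type libraries; the grey bar spans the 5th to 95th percentile of all tested genes. The interferon-stimulated list lies to the right of 0 in the CpG pair (median 0.80), and the cytokine list in the unstimulated pair (median 0.55).

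The receptors of these ligands differed little between the proteins. Tlr4, which encodes the LPS receptor, was at 55.5 TPM under LPS, 46.2 under CpG and 43.7 unstimulated in the lumican libraries, against 53.4 TPM under LPS, 48.8 under CpG and 42.6 unstimulated in the biglycan libraries, a mean log2 difference of 0.00 ± 0.07 (SE, n = 3 pairs; 95% interval -0.16 to 0.17). The lumican and biglycan libraries overlapped and the sign changed between pairs. Cd14 was at 2226 TPM under LPS, 864 under CpG and 694 unstimulated with lumican, against 2315 TPM under LPS, 869 under CpG and 605 unstimulated with biglycan, a difference of 0.04 ± 0.07. Tlr9, the CpG receptor, was low in every library, at 4.61 TPM under LPS, 4.95 under CpG and 2.70 unstimulated with lumican and 5.78 TPM under LPS, 4.96 under CpG and 3.04 unstimulated with biglycan, and its difference of -0.13 ± 0.12 has a 95% interval of -0.42 to 0.16. Tlr2 differed by 0.07 ± 0.06, with an interval of -0.09 to 0.23. Over 24 tested Toll-like receptors, co-receptors and adaptors the median was 0.07 in the LPS pair, -0.07 in the CpG pair and -0.04 in the unstimulated pair, with 17, 4 and 10 members higher where 60.9%, 41.8% and 35.9% of all tested genes were, and 0 lower by 1.5-fold (background 1.13%, 1.32% and 3.2%). Of these, Tlr8, an endosomal receptor, was lower with lumican in all 3 pairs (-0.55, -0.18 and -0.38), and Tlr3, the receptor of double-stranded RNA, was past 1.5-fold higher with lumican in the CpG pair, at 11.8 TPM with lumican, 6.86 with biglycan and 10.7 with no protein.

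The cells themselves expressed little of either proteoglycan. Lum was at 1.24 TPM under LPS, 0.324 under CpG and 0.228 unstimulated in the lumican libraries, against 0.718 TPM under LPS, 0.354 under CpG and 0.193 unstimulated in the biglycan libraries. Bgn was at 0.459 TPM under LPS, 1.52 under CpG and 0.442 unstimulated with lumican, against 0.327 TPM under LPS, 0.542 under CpG and 1.03 unstimulated with biglycan. Both averaged under 1 TPM and were not tested. Added protein leaves no transcript, so these levels are no check of the additions. Among other matrix and proteoglycan genes (16 tested), Srgn, which encodes the core protein of the intracellular proteoglycan serglycin, was at 792 TPM under LPS, 401 under CpG and 355 unstimulated with lumican, against 798 TPM under LPS, 379 under CpG and 329 unstimulated with biglycan. That list had medians of 0.02, 0.04 and 0.11 in the LPS, CpG and unstimulated pairs.

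Under CpG, 37 of 37 tested interferon-stimulated genes were higher with lumican than with biglycan, where 41.8% of all tested genes were. Of these, 29 were past 1.5-fold higher, a mark that 2.15% of all tested genes passed in that direction. Ifit3, a tetratricopeptide protein that acts with Ifit1 on viral RNA, was at 100.4 TPM with lumican, 31.9 with biglycan and 158 with no protein under CpG, a log2 difference of 1.62 between lumican and biglycan. Ifit1, which binds viral RNA that lacks the host's cap methylation, was at 72.7 TPM with lumican, 26.3 with biglycan and 88.5 with no protein (difference 1.43). Oasl1, which holds back translation of Irf7 in mice, was at 30.1 TPM with lumican, 9.33 with biglycan and 32 with no protein (difference 1.59). The library given biglycan and CpG was the low one for each of these genes, and the lumican library lay between it and the library given CpG alone, close to CpG alone for Oasl1. That biglycan library also had the lowest estimated depth of the 6, at 13 M reads. Its concentration label, given as conc_nm beside the absorbance ratios, was 137, against 243 for the library given lumican and CpG. Their part in the gap was not tested. Rsad2, which encodes viperin, was at 55.9 TPM with lumican, 23.6 with biglycan and 74.6 with no protein (difference 1.21), and Isg15, a ubiquitin-like modifier, at 214 TPM with lumican, 109.6 with biglycan and 298 with no protein (difference 0.96). Among the smallest differences were those of Gbp2, a guanylate-binding protein (0.12), and of Irf9, an interferon signalling gene (0.36), which stood at 62.3 TPM with lumican and 48.2 TPM with biglycan. Irf7, the interferon regulatory factor that amplifies this program, was at 213 TPM with lumican, 119 with biglycan and 267 with no protein (difference 0.84).

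The 5′ flanks of these genes are shown because genes of this kind are known to carry a regulatory motif, the interferon-stimulated response element. The 200 bases before the transcription start are from RefSeq on build GRCm38.p6, read in the direction of the gene, with matches on either strand in capitals; the letters searched were GAAA, any 2 bases, then GAAA. Ifit3 is given at chr19:34583329-34583528 (plus strand), Ifit1 at chr19:34640689-34640888 (plus strand) and Rsad2 at chr12:26456453-26456652 (minus strand).
Ifit3: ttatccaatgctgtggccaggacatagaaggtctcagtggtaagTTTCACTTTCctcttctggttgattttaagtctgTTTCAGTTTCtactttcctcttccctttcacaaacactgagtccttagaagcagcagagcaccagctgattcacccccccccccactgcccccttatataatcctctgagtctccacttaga
Ifit1: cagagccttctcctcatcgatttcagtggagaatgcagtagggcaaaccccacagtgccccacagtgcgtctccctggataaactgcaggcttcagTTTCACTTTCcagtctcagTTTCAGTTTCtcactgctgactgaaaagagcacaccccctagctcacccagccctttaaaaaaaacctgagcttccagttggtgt
Rsad2: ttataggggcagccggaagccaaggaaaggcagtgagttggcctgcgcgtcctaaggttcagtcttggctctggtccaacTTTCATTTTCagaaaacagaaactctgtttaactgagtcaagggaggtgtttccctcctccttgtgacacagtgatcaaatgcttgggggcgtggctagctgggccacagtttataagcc
Ifit3 and Ifit1 each held 2 matches, at 156 and 122 bases before the start in Ifit3 and at 104 and 85 bases in Ifit1, and Rsad2 held 1, at 120 bases. The Oasl1 flank held no match. Windows of 250 bases before to 50 bases after a start were found for 27 of the 37 tested genes of the list. These genes had 33 windows, of which 16 (48.5%) held the motif in the 250 bases before the start, against 2.98% of all 32851 windows. Matches are letters in a window and were not read as sites in use.

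**Figure D2:**
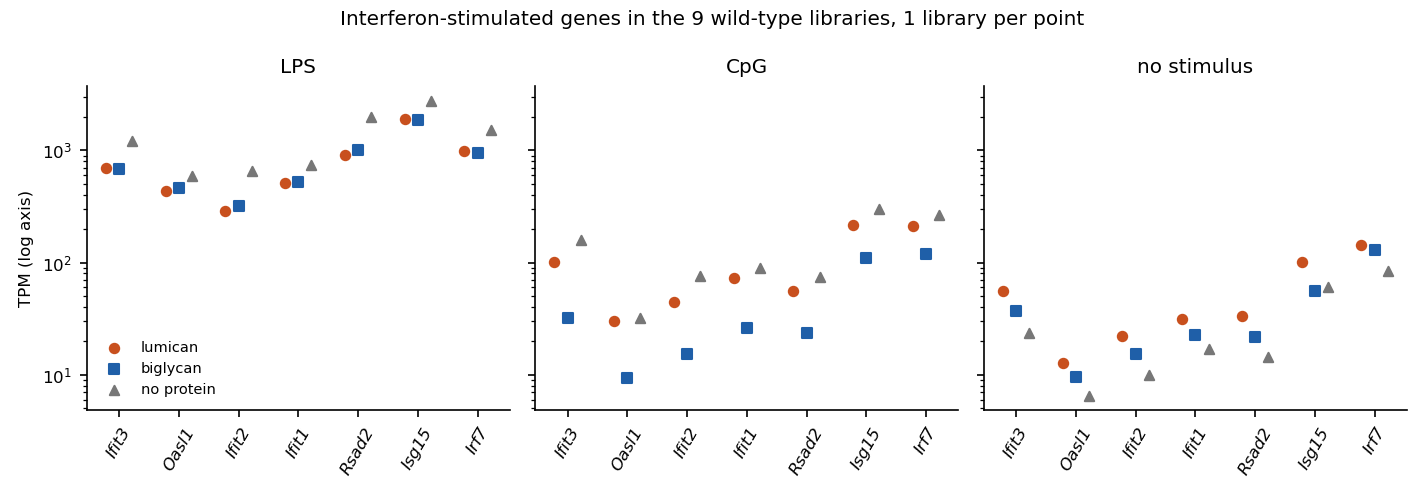
TPM (log axis) of 7 interferon-stimulated genes in the 9 wild-type libraries, by stimulus, for lumican (orange circles), biglycan (blue squares) and no protein (grey triangles), 1 library per point. Under CpG the biglycan points are the lowest of the 3 for all 7 genes, as for Ifit3 at 31.9 TPM against 100.4 TPM with lumican, and under LPS the lumican and biglycan points lie close together, as for Ifit3 at 695 and 689 TPM.

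In the LPS pair the same list lay around 0 between the proteins. Ifit3 was at 695 TPM with lumican, 689 with biglycan and 1222 with no protein under LPS, and Rsad2 at 909 TPM with lumican, 1016 with biglycan and 1983 with no protein. Of 37 members, 19 were higher and 18 lower with lumican, 0 were past 1.5-fold (background 1.57% higher and 1.13% lower), and the median was 0.01. Both proteins lay below LPS alone: the median difference from no protein was -0.40 with lumican and -0.40 with biglycan, 2 values that share the library given LPS alone. The summed level of the list was 17601 TPM with lumican, 17654 TPM with biglycan and 25399 TPM with no protein. With no stimulus the list leaned towards lumican, with 31 of 37 members higher (35.9% of all tested genes), a median of 0.19, and 4 members past 1.5-fold higher and 1 lower (1.31% and 3.2% of all tested genes). Those 4 included Isg15, at 101 TPM with lumican, 56.1 with biglycan and 60.8 with no protein, and Ifi205, an interferon-induced PYHIN protein, at 94.9 TPM with lumican, 52.4 with biglycan and 32.8 with no protein; Iigp1, an immunity-related GTPase and the 1 lower, went the other way, at 9.20 TPM with lumican, 18 with biglycan and 7.67 with no protein.

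Set against no protein under CpG, the biglycan library lay farther below than the lumican library. The list's median difference from CpG alone was -0.20 with lumican and -0.98 with biglycan, with the same control library in both. Over the 3 pairs 17 of 37 members were higher with lumican each time (8.54% of all tested genes were), 10 had an unadjusted p under 0.05 in limma (3.59% of all tested genes), and 0 were called. For Ifit3 the mean difference was 0.74 ± 0.27 (95% interval 0.08 to 1.39, adjusted p = 1.00). In these bulk libraries fewer responding cells and less RNA per cell cannot be told apart. Beside this gap, B cell markers summed to 1564 TPM with lumican and CpG and 1326 TPM with biglycan and CpG, mast cell markers to 121 and 107 TPM, and the dendritic cell list to 112 and 107 TPM. The eosinophil list, mostly Alox15, was at 108 TPM with lumican and 145 TPM with biglycan, and the neutrophil list at 264 and 277 TPM, with a median of -0.45 over 3 tested members; their part in the result was not tested. Ifnb1, which encodes interferon beta, was at or under 2.31 TPM in all 9 wild-type libraries, and under CpG it was at 0.157 TPM with lumican, 0 TPM with biglycan and 0.354 TPM with no protein.

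Some other genes that stood higher with CpG alone than in untreated wild-type cells differed little between the proteins. These 3 were picked after their values were seen. Il10, an anti-inflammatory cytokine, was at 18.6 TPM with lumican, 15.8 with biglycan and 17.3 with no protein, against 2.37 TPM in untreated cells. Ccl22, a chemokine, was at 79.5 TPM with lumican, 74.8 with biglycan and 61.7 with no protein, against 2.26 TPM untreated, and the growth regulator Myc at 28.5 TPM with lumican, 25.3 with biglycan and 23.2 with no protein, against 5.74 TPM untreated. Their differences of 0.22, 0.09 and 0.17 stand beside the list median of 0.80. Further genes higher with CpG alone differed more: Nos2, the inducible nitric oxide synthase gene, by 0.38 and the chemokine gene Ccl7 by 0.31. Cxcl10, an interferon-inducible chemokine, was at 30.7 TPM with lumican, 20.5 with biglycan and 62.1 with no protein (difference 0.56), and Fcgr1, an Fc receptor known to respond to interferon, at 17.2 TPM with lumican, 11.2 with biglycan and 44.4 with no protein (0.58).

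The level of the interferon-stimulated list also varied widely among libraries given no protein. The mean log2(TPM + 1) over the list under CpG was 6.41 with lumican and 5.57 with biglycan in wild type, a gap of 0.85. With CpG alone it ranged over 1.81 units, between 5.23 in the library labelled Bgn-/- and 7.04 in that labelled Lum-/-, with wild type at 6.63. Under LPS alone the 3 genotypes spanned 0.20 units. That range exceeds the gap between the proteins through the library labelled Bgn-/-, while the other two CpG-alone libraries differ by less than the gap.

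The libraries labelled as knockouts, where lumican was given to the Lum-/- label and biglycan to the Bgn-/- label, gave a gap in the same direction between their protein libraries but not against their own CpG-alone libraries. The list stood at 6.70 with lumican in the Lum-/- label and 5.20 with biglycan in the Bgn-/- label under CpG, where genotype and protein cannot be told apart. These labels need care, since Lum stood at 2.88 TPM with CpG alone in the library labelled Lum-/- and 0.273 TPM in wild type, and Bgn at 3.49 TPM in the library labelled Bgn-/- and 0.961 TPM in wild type. With CpG, Ifit3 was at 140.3 TPM with lumican and 211 TPM without in libraries labelled Lum-/-, and at 21.1 TPM with biglycan and 18.7 TPM without in libraries labelled Bgn-/-. The list's median difference from CpG alone with lumican was -0.34 in the Lum-/- label, and with biglycan 0.00 in the Bgn-/- label, where the list was already low. The lumican effect minus the biglycan effect over LPS and CpG had a list median of -0.18, opposite in sign to the wild-type CpG pair, and for Ifit3 it was -0.47 ± 0.13 (SE, limma adjusted p = 1.00). Of 10939 genes in that fit 1 was called (0.00914%), Gm26602, a gene model without a described function, and 431 had an unadjusted p under 0.05.

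**Figure D3:**
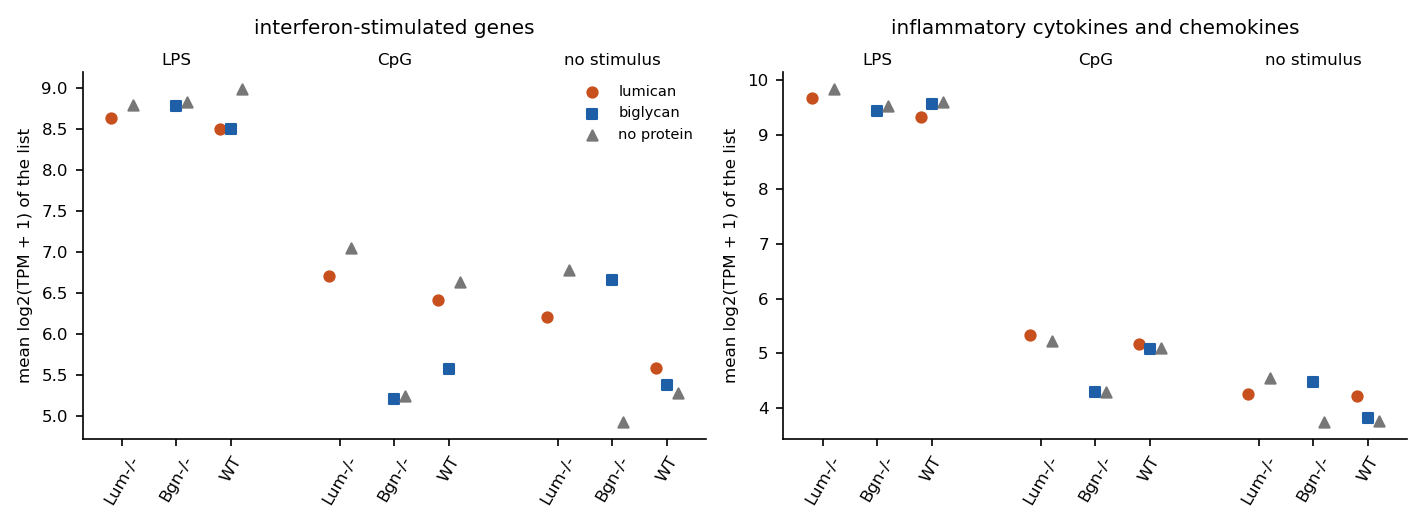
Mean log2(TPM + 1) of the interferon-stimulated list (left) and the cytokine list (right) in all 21 libraries, by stimulus and labelled genotype, for lumican (orange circles), biglycan (blue squares) and no protein (grey triangles), 1 library per point. Under CpG the wild-type biglycan point lies at 5.57 and the lumican point at 6.41, and CpG-alone libraries run from 5.23 to 7.04; the biglycan-alone library labelled Bgn-/- and the untreated library labelled Lum-/- stand high in the left panel.

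A fit of genotype plus treatment over 18 libraries, added after the data were seen and leaving out the untreated wild-type, untreated Lum-/- and biglycan-alone Bgn-/- libraries, compared the proteins within each stimulus. The wild-type library was left out for its low mast cell markers and its high Alox15, while the eosinophil genes Prg2 and Epx were at 0 in it. The untreated Lum-/- and biglycan-alone Bgn-/- libraries were left out because they are shallow, at 2.40 and 2.43 M estimated reads, and alike in list level. For the interferon-stimulated list that level was 6.77 untreated Lum-/- and 6.65 biglycan-alone Bgn-/-. Whether their labels are right cannot be told from a list level and was not tested. Limma called 0 of 11074 genes (0%) under LPS, 0 (0%) under CpG and 0 (0%) with no stimulus, and 392, 497 and 660 genes had an unadjusted p under 0.05. For Ifit3 under CpG the estimate was 1.40 ± 0.65 (SE, adjusted p = 0.999). The list's median in this fit was -0.43 under LPS, 0.81 under CpG and 0.35 with no stimulus. In the wild-type pairs, which the fit reuses, it was 0.01, 0.80 and 0.19. The fit gives each labelled genotype 1 offset over all stimuli. With no protein, however, the list stood at 8.80 (Lum-/- label) and 8.84 (Bgn-/- label) under LPS, and at 7.04 and 5.23 under CpG. A single offset cannot hold both, so estimates within 1 stimulus, that of Ifit3 included, may carry genotype differences. Against no protein in the 9 wild-type libraries, limma called 0 of 11140 genes (0%) for lumican and 0 (0%) for biglycan, with 986 and 1336 genes at an unadjusted p under 0.05. When the unstimulated libraries were left out, biglycan against no protein gave 3 calls, Gm10961, Gm10964 and Fcgr1. Lumican against no protein gave 1 call there, also Gm10964. Its log2 difference was -2.78 with either protein, against the same libraries with no protein. Fcgr1, which encodes the high-affinity IgG receptor CD64, was lower with biglycan than with no protein, at a log2 difference of -1.98 ± 0.16 (SE, adjusted p = 0.0389). Under LPS, Fcgr1 was at 28.2 TPM with lumican, 25.9 with biglycan and 111 with no protein, so both proteins stood below no protein, and between the proteins the difference was 0.12.

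With no stimulus, inflammatory cytokines and chemokines were higher in cells given lumican alone than in cells given biglycan alone. Of 25 tested members 20 were higher (35.9% of all tested genes were) and 11 were past 1.5-fold higher and 1 lower (1.31% and 3.2% of all tested genes). Cxcl1, a neutrophil-attracting chemokine, was at 149 TPM with lumican, 69.7 with biglycan and 80.7 with no protein, a log2 difference of 1.08. Il1b, the interleukin-1 beta gene, was at 144 TPM with lumican, 76.5 with biglycan and 76.5 with no protein (0.91). In this pair the lumican library was the high one, and biglycan and no protein lay close together for both genes. The related chemokines Cxcl2 and Cxcl3 were at 413 TPM with lumican, 224 with biglycan and 359 with no protein, and at 483 TPM with lumican, 261 with biglycan and 276 with no protein. Tnf was at 238 TPM with lumican, 149 with biglycan and 197 with no protein (0.68), and Il6 at 6.68 TPM with lumican, 2.68 with biglycan and 2.27 with no protein (1.06). For Cxcl2 and Tnf the library with no protein lay between the others. Ccl5, a lymphocyte-attracting chemokine, was at 303 TPM with lumican, 180.2 with biglycan and 335 with no protein, and was the list member with the highest mean over the 3 pairs, 0.40 ± 0.12 (adjusted p = 1.00). The 5 members that went the other way included Cxcl9 (-0.71) and Il12a (-0.53), both at or under 2.24 TPM in these libraries.

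The Cxcl1 flank is shown for the motif that NF-kB binds, searched as GGGA, any 2 bases, then TTCC on either strand, in the 200 bases before the start (RefSeq, GRCm38.p6, chr5:90891045-90891244, plus strand), with matches in capitals.
Cxcl1: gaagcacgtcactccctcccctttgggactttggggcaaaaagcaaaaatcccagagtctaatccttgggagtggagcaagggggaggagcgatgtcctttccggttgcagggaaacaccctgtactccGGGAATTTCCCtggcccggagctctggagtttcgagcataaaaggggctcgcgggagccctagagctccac
Cxcl1 held 2 overlapping matches, 71 and 70 bases before the start, and the Il1b flank held none. The 16 cytokine list genes with a window had 17 windows. Of these windows, 5 (29.4%) held the motif in the 250 bases before the start, against 1.21% of all windows.

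Against no protein with no stimulus, the cytokine list differed by a median of 0.55 with lumican and -0.01 with biglycan, both measured against the untreated library that stands apart. In the libraries labelled Lum-/- the list's median difference with lumican alone was 0.14, against an untreated library of 2.40 M estimated reads. Its mean log2(TPM + 1) there went the other way, at 4.25 with lumican alone and 4.55 untreated. In the libraries labelled Bgn-/- the median difference with biglycan alone was 0.39, from a biglycan library of 2.43 M estimated reads. The mean log2(TPM + 1) of the list was 4.22 with lumican and 3.82 with biglycan in wild type, a gap of 0.40. With neither protein nor stimulus it was 4.55 in the library labelled Lum-/-, 3.73 in that labelled Bgn-/- and 3.76 in wild type. That range of 0.82 exceeds the gap between the proteins through the shallow library labelled Lum-/-, while the untreated Bgn-/- and wild-type libraries differ by less than the gap. Whether depth affects this level was not tested. Mast cell markers summed to 110 TPM with lumican and 113 TPM with biglycan, and B cell markers to 1122 and 1080 TPM, in this pair. The neutrophil list stood at 278 TPM with lumican and 277 TPM with biglycan, the eosinophil list at 109 and 144 TPM, the dendritic cell list at 65.2 and 78.6 TPM and the T cell list at 14.5 and 17.7 TPM. Their part in the result was not tested.

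Other genes, chosen after their values were seen, were also higher with lumican in the unstimulated pair. Asns and Trib3, targets of the stress factor ATF4, were at 46.2 TPM with lumican, 26.5 with biglycan and 10.5 with no protein, and at 13.9 TPM with lumican, 7.66 with biglycan and 3.10 with no protein (differences 0.78 and 0.78). Slc7a2, a cationic amino acid transporter, was at 255 TPM with lumican, 149 with biglycan and 87.8 with no protein. Ch25h, which makes 25-hydroxycholesterol and responds to interferon, was at 7.25 TPM with lumican, 3.29 with biglycan and 0.562 with no protein. Of 13 tested NRF2 targets and oxidative stress genes, 12 were higher with lumican (35.9% of all tested genes were; median 0.25), with 0 past 1.5-fold (1.31%), whereas in the CpG pair 13 of 13 were lower (median -0.14, with 58.1% of all tested genes lower). Genes higher with biglycan included Cyp27a1, a sterol hydroxylase, at 12.2 TPM with lumican and 22.9 TPM with biglycan, and Mcoln1, a lysosomal calcium channel, at 111 and 148 TPM.

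**Figure D4:**
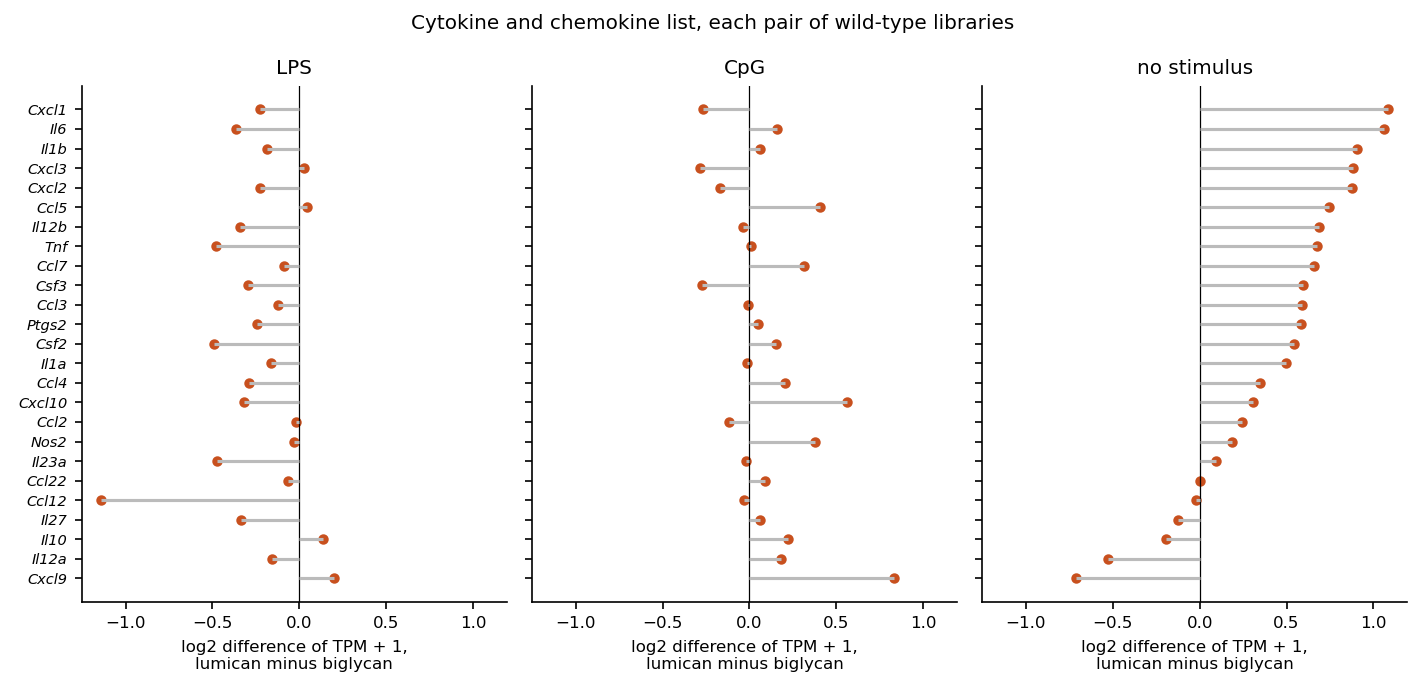
Log2 difference of TPM + 1, lumican minus biglycan, for the 25 tested genes of the cytokine and chemokine list in the LPS, CpG and unstimulated pairs, ordered by the unstimulated pair. With no stimulus 20 of 25 lie to the right of 0, and with LPS 21 of 25 lie to the left.

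In the LPS pair the cytokine list leaned the other way. Of 25 members 21 were lower with lumican (39% of all tested genes were) and 1 was past 1.5-fold lower (1.13%), with a median of -0.23. Tnf was at 4889.6 TPM with lumican, 6808 with biglycan and 4103 with no protein, a difference of -0.48, and Il6 at 2542 TPM with lumican, 3279 with biglycan and 3334 with no protein (-0.37). Csf2, the granulocyte-macrophage colony-stimulating factor gene, was at 134 TPM with lumican, 189 with biglycan and 157 with no protein (-0.49). For Tnf the library with LPS alone was the lowest of the 3, and for Il6 it was the highest. The member past 1.5-fold was Ccl12, at 1.35 TPM with lumican, 4.17 with biglycan and 12 with no protein. Cxcl3 and Ccl5 differed by 0.02 and 0.05. Set against LPS alone, the list's median was -0.16 with lumican and 0.09 with biglycan, values that share the library given LPS alone. NF-kB subunits and feedback inhibitors, read as a group of 20, had a median of -0.05 in the LPS pair, -0.03 in the CpG pair and 0.15 in the unstimulated pair. Nfkbia, the inhibitor that NF-kB induces, was at 759 TPM with lumican, 782 with biglycan and 853 with no protein under LPS. In the CpG pair the cytokine list had a median of 0.06, with 15 members higher and 10 lower (41.8% and 58.1% of all tested genes).

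Large differences in the same direction in all 3 pairs were few. All 3 pairs were higher with lumican for 955 genes (8.54%) and lower for 1569 (14%). Only 2 genes (0.0179%) were past 1.5-fold in the same direction each time with at least 5 TPM, AC133103.7 and Gm10401, both gene models without a proper symbol, named here after their values were seen. Among genes with a proper symbol, the 12 each way with the largest smallest pair difference are described with no test, since this pattern chose them. Glrp1 was at 15.7 TPM under LPS, 7.91 under CpG and 5.35 unstimulated with lumican, against 11.7 TPM under LPS, 5.85 under CpG and 3.35 unstimulated with biglycan (mean 0.44 ± 0.10). Insig2, which retains the sterol sensor complex in the endoplasmic reticulum, was at 11.6 TPM under LPS, 20.2 under CpG and 24.9 unstimulated with lumican, against 9.44 TPM under LPS, 16.2 under CpG and 16.8 unstimulated with biglycan (mean 0.37 ± 0.09). Spic, a factor of iron-recycling macrophages, was at 14.7 TPM under LPS, 13.9 under CpG and 10.8 unstimulated with lumican, against 11.1 TPM under LPS, 11.1 under CpG and 8.84 unstimulated with biglycan (mean 0.31 ± 0.09). The pairs were separated for each gene, but levels under different stimuli overlapped. The others on this side were Lbhd1, Rif1 (a DNA repair and replication timing factor), Adamtsl4, Lrrc40 and the immunoglobulin segments Igkv2-137, Igkv19-93, Igkv5-43, Ighv5-9-1 and Ighj3, with means of 0.32 to 0.90. Sibling segments of Ighj3 did not follow it. Under LPS, CpG and no stimulus, Ighj4 was at 27.6, 53.4 and 39.6 TPM with lumican and 29.6, 60.5 and 50.3 TPM with biglycan. For Ighj1 and Ighj2 the sign changed between pairs. When the most abundant transcript stood for the gene in place of the sum, the means were -0.051 for Insig2, -0.39 for Adamtsl4, 0.056 for Rif1, 0.15 for Spic and 0.84 for Lrrc40, so Insig2 and Adamtsl4 changed sign.

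On the biglycan side, Apbb3, which encodes a protein that binds the amyloid precursor protein, was at 3.74 TPM under LPS, 13.3 under CpG and 18.1 unstimulated with lumican, against 6.61 TPM under LPS, 24.1 under CpG and 27.3 unstimulated with biglycan, a mean of -0.69 ± 0.09. Ltc4s, the leukotriene C4 synthase gene, was at 1.26 TPM under LPS, 13.9 under CpG and 22.3 unstimulated with lumican, against 2.36 TPM under LPS, 17.8 under CpG and 28.8 unstimulated with biglycan (mean -0.42 ± 0.10). Alox5, which acts before it in leukotriene synthesis, was at 2.36 TPM under LPS, 9.26 under CpG and 15.4 unstimulated with lumican and 2.49 TPM under LPS, 17.7 under CpG and 21.3 unstimulated with biglycan, a mean of -0.46 ± 0.16, with almost no difference under LPS (-0.06). Lrch1, Arhgap39, Hint2, Mettl26, Matk (a tyrosine kinase), Scamp5, Galnt9, Acat1 (a mitochondrial thiolase), Zfp691 and Hpn (a membrane serine protease) made up the rest, with means of -0.76 to -0.29. With the most abundant transcript, Arhgap39 was at 0.017 and Hpn at 0.13, on the other side of 0, Lrch1 at -0.027, Scamp5 at -0.030, Acat1 at -0.0042 and Ltc4s at -0.20, and Apbb3 at -1.33 and Zfp691 at -1.38. In the fit of labelled knockouts, 3 of the 12 genes higher with lumican and 7 of the 12 lower genes had the same direction, 10 of 24 in all, and none of the 24 was called there.

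**Figure D5:**
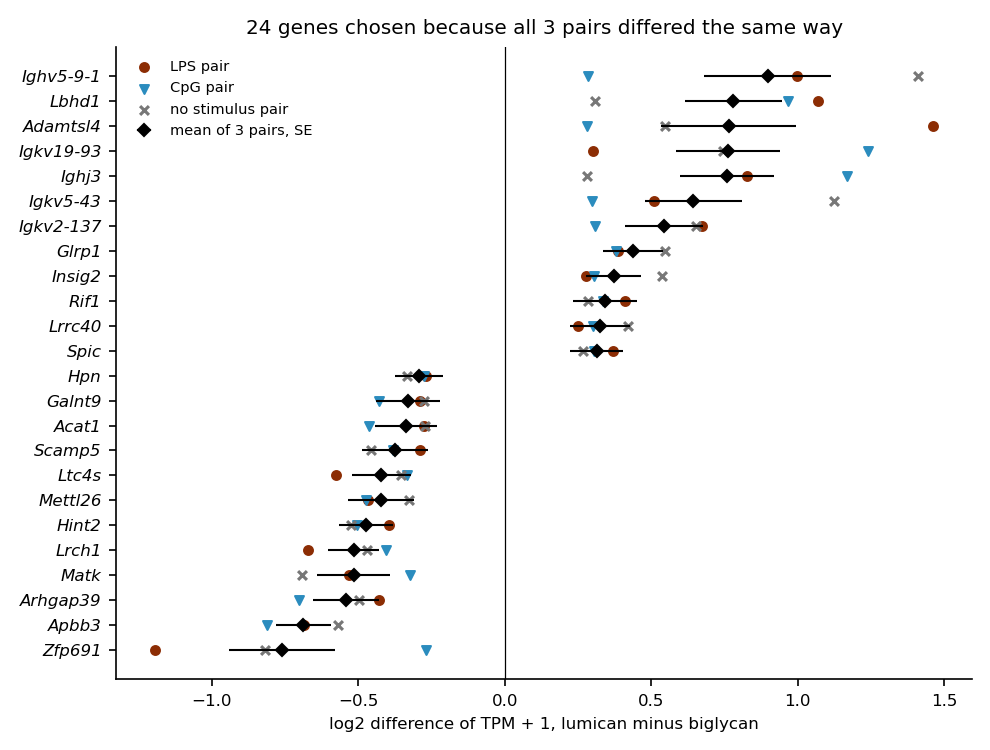
Log2 difference of TPM + 1, lumican minus biglycan, for the 24 genes that were chosen because all 3 pairs differed in 1 direction: each pair (circle LPS, triangle CpG, cross no stimulus) and their mean with its standard error (diamond, bar). Means run from -0.76 for Zfp691 to 0.90 for Ighv5-9-1.

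Past 2-fold with at least 5 TPM in the higher library were 30 genes in the LPS pair (0.39% of 7694), 64 in the CpG pair (0.701% of 9136) and 60 in the unstimulated pair (0.649% of 9248). Immunoglobulin segments made up 11, 15 and 16 of them. In the LPS pair 14 were higher with lumican and 16 lower, in the CpG pair 46 and 18, and in the unstimulated pair 17 and 43. Rps27rt, with the largest difference of any tested gene in a single pair, and Rps27 are near-identical copies of a ribosomal protein gene. Rps27rt was at 1192 TPM under LPS, 1732 under CpG and 1833 unstimulated with lumican, against 16.2 TPM under LPS, 1666 under CpG and 16.8 unstimulated with biglycan, whereas Rps27 was lower with lumican under LPS and unstimulated and higher under CpG, at 150.3 TPM under LPS, 122 under CpG and 122 unstimulated with lumican, against 1315 TPM under LPS, 48.4 under CpG and 1857 unstimulated with biglycan. Their sum was 1342, 1854 and 1955 TPM with lumican and 1331, 1714 and 1874 TPM with biglycan under LPS, CpG and no stimulus, so the value of each single copy is uncertain. In the same order, the 5 Igkj joining segments together were at 174, 215 and 125 TPM with lumican and 176, 152 and 239 TPM with biglycan. The Ighj segments together were at 98.8, 159 and 77.2 TPM with lumican and 91.7, 109 and 123 TPM with biglycan. Unlike the Rps27 sums, these differed under CpG and with no stimulus. They therefore do not show how reliable a single segment is, which was not tested. Among ordinary genes, Kdm4b, a histone demethylase, was higher with lumican under LPS (16.3 TPM with lumican and 4.21 TPM with biglycan) and lower under CpG and with no stimulus (-0.90 and -1.08).

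Most other pathway lists had medians within 0.15 of 0 in each pair. Lysosome and V-ATPase genes, 23 in all, had medians of 0.07 in the LPS pair, -0.10 in the CpG pair and -0.06 in the unstimulated pair, with 0 past 1.5-fold in any pair; the cathepsin gene Ctsb was at 2780.3 TPM under LPS, 4397 under CpG and 5108 unstimulated with lumican, against 2589 TPM under LPS, 4650.3 under CpG and 5111 unstimulated with biglycan. Caveolin, flotillin, clathrin and Rab genes (20) had medians of 0.07, -0.06 and -0.07 in the same order. Cav1, which encodes caveolin-1, was nevertheless higher with lumican in each pair, at 1021 TPM under LPS, 553 under CpG and 376 unstimulated, against 918 TPM under LPS, 539 under CpG and 267 unstimulated with biglycan (mean 0.23 ± 0.09, adjusted p = 1.00). Sterol and fatty acid synthesis genes (24) had medians of -0.05, -0.11 and 0.08, and cell cycle genes (23) of -0.04, 0.07 and -0.02. Unfolded protein response and ATF4 targets (18) had medians of 0.06, 0.03 and 0.15, and 8 of 18 were higher in all 3 pairs (8.54% of all tested genes were). Large peritoneal macrophage identity genes (16) had medians of -0.01, -0.07 and -0.04, and alternative activation genes (9) of 0.01, 0.02 and 0.00. Complement genes of the C1q complex were lower with lumican in all pairs for C1qa (-0.23, -0.15 and -0.18) and C1qb (-0.11, -0.12 and -0.19), each by less than 1.5-fold. Saa3, an acute-phase serum amyloid gene and the most abundant of the acute-phase list, was at 96455 TPM under LPS, 77043 under CpG and 76025 unstimulated with lumican, against 96689 TPM under LPS, 66358 under CpG and 67627 unstimulated with biglycan.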

How the data were processed

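RNA sequencing libraries were grouped by their labels. The submitters' processing notes name kallisto 0.44.0, bcl2fastq 1.8.4 and GRCm38. Values were deposited by the authors as TPM for every transcript, scaled within a library. TPM was summed per gene name (18869 genes); transcripts with no gene name, at 27855 to 40226 TPM per library, were left out. Testing used limma 3.58.1 (R 4.3.3) for genes averaging 1 TPM or more, on log2(TPM + 1), which understates the change of low genes, with stimulus as a block, a trended eBayes, two-sided p-values and Benjamini-Hochberg adjustment at 0.05. The script was tested on simulated data. Depth is an estimate from low values with an assumed fragment length of 200 bases; of the low values, 64.9% to 67.3% came within 0.2 of whole reads (an even spread gives 40%), so reads were not recovered. Sums and figures were made in Python 3.11.15 (matplotlib 3.10.9, numpy 2.4.6, pandas 2.3.3).

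The compared libraries, the 33 gene lists (9 of markers) and the tests were chosen with earlier results of these data known. Named genes are Lum, Bgn, Tlr4, Tlr9, Tlr2 and Cd14, the 12 each way with the largest smallest difference over the 3 pairs at 5 TPM or more, up to 6 each way within a pair at 10 TPM or more, and, per list, its first 4 members with values plus the 3 of largest mean difference. This rule leaves out gene models without a proper symbol; those, and further list members, were named after their values were seen. P-values of the main fit set the mean difference against the spread of the 3 pair differences. That spread holds any difference between stimuli as well as noise between libraries, which may be technical. Alternatives were pseudocounts of 0.1 and 5, other filters, scalings and eBayes settings, the most abundant transcript per gene, transcripts matched by ID, all 21 libraries, and each stimulus left out in turn.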

Additional observations from a re-analysis of the deposited data

Results flagged for a closer look

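The inflammatory cytokine and chemokine list differed in direction between stimuli. Its median log2 difference, lumican minus biglycan, was -0.23 in the LPS pair, with 21 of 25 members lower, and 0.55 in the pair with no stimulus, with 20 of 25 higher. Each value rests on 1 library against 1, and the difference between them was not tested. Cxcl1 shows it at 8906 TPM with lumican and 10410 TPM with biglycan under LPS, and at 149 and 69.7 TPM with no stimulus.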

How the results depend on the processing

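The count of 0 genes called between lumican and biglycan held under every alternative that kept the 3 pairs; leaving out a stimulus gave 0 to 5 calls, the 5 without CpG being Rps27, Rps27rt, Ighj2, Gm10217 and Gm17571 and the 1 without the unstimulated libraries Gm17374. The single call in the labelled knockouts gave way to 0 with quantile normalization, pseudocounts of 0.1 or 5, no eBayes trend, ID-matched transcripts, median-of-ratios scaling, a 5 TPM filter or none, and with the most abundant transcript it was another gene, Pdp1, in the other direction; leaving a stimulus out there could not be fitted. Calls against no protein ranged over 0 to 1 for lumican and 0 to 3 for biglycan when a stimulus was left out, and were 1 and 3 with LPS and CpG only. The added fit called 1 unstimulated gene (Trbj2-1) in all 21 libraries and 2 (Acnat1, Igkv13-85) at a pseudocount of 0.1. Genes past 1.5-fold in all pairs numbered 0 at a pseudocount of 5, 6 with the most abundant transcript, and 12 to 29 when a pair was left out. Genes past 2-fold at a pseudocount of 5 numbered 13 (LPS), 32 (CpG) and 25 (unstimulated), with the most abundant transcript 50, 99 and 92, and with median-of-ratios scaling 49 (LPS) and 37 (unstimulated). The unstimulated cytokine median was 0.28 at a pseudocount of 5; the interferon-stimulated median under CpG ran from 0.76 to 0.90 over its alternatives. Of 472 values of 28 named genes under alternatives, 464 kept their direction, 8 did not and 0 were called. That count is no measure of robustness. Filters and eBayes settings leave an estimate unchanged. Of these genes, 24 were chosen for the same sign in all pairs, so leaving out a stimulus could not reverse them. Tlr4 ranged over -0.020 to 0.047 and Cd14 over -0.032 to 0.094 when a stimulus was left out, Igkv2-137 was -0.30 in all 21 libraries, and with the most abundant transcript Adamtsl4 was -0.39, Insig2 -0.051, Arhgap39 0.017 and Hpn 0.13. The causes were not tested. With 1 library per protein and stimulus, a pair has no repeat, and depth is known only as an estimate.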
